A study of Homo sapiens with 3 samples.

Results

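The 10 genes examined here encode abundant molecular chaperones, and they were followed through the peak lists of 2 proteins of the large ribosomal subunit, RPL22 and its paralog RPL22L1. The genes, HSPD1, HSPE1, HSP90AA1, HSP90AB1, HSP90B1, HSPA4, HSPA5, HSPA8, HSPA9 and HSPH1, were all found among the 59712 genes that the RefSeq table of GRCh38 places on chromosomes. A peak belonged to a gene when its summit lay within the bounds of that gene, and summits inside an annotated snoRNA gene were kept apart. By this rule the genes held 44 of the 154000 RPL22 peaks and 168 of the 254413 RPL22L1 peaks. The list was chosen by gene function with the summit numbers of these libraries in view, and HSPD1 was selected on its RPL22L1 summits without an RPL22 summit. The values below therefore describe the members, and no test between libraries was run.

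The study sequenced RNA pulled down by GoldCLIP, a crosslinking method that captures a HaloTag fusion protein covalently on beads, from HCT116, an established cell line of human colorectal carcinoma, grown in McCoy's 5a medium with serum. Its 3 samples, 1 library each, came from cells expressing HaloTag alone, RPL22-HaloTag or RPL22L1-HaloTag, and no drug, time course or further allele is named. The RPL22-HaloTag and RPL22L1-HaloTag libraries are called the RPL22 and the RPL22L1 list here. Values of the HaloTag library were not analysed here, and the lists therefore have no measured background beside them. Whether a fusion replaced or joined the native protein, or came from 1 clone, is not given in the sources used here. All 5 epithelial marker genes examined, EPCAM, CDH1, KRT8, KRT18 and KRT19, held summits in both lists, while PTPRC, CD3E and COL1A2 held none. COL1A1, a fibroblast collagen gene, held 9 and 6 summits, of which 2 and 0 were not flat, PDGFRA held 0 and 1, and peak lists give no expression level.

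Molecular chaperones bind unfolded protein chains and help them fold, assemble or cross membranes. HSPD1 (HSP60) and HSPE1 (HSP10) form the folding chamber of the mitochondrial matrix and are transcribed divergently from a shared promoter region, and HSPA9 (mortalin) is the HSP70 of mitochondria. HSPA8 (HSC70) is the constitutive cytosolic HSP70, HSPA5 (BiP) the HSP70 of the endoplasmic reticulum, and HSPA4 and HSPH1 are large HSP110-type relatives that exchange the nucleotide of HSP70. HSP90AA1 and HSP90AB1 are the cytosolic HSP90 isoforms and HSP90B1 (GRP94) is their counterpart in the endoplasmic reticulum. Genes of the cytosolic system are classical targets of heat shock factor at heat shock elements, and HSPA5 and HSP90B1 carry endoplasmic reticulum stress elements.

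Promoter windows of the members are shown because matches to heat shock elements and to endoplasmic reticulum stress elements fell in different members. The genes were not chosen by these letters. They were chosen by function, and both elements are known from genes of these kinds, so the matches are not independent of the choice. Each window runs from 250 bases before to 50 bases after an annotated start, taken from RefSeq on GRCh38.p14, and all 10 genes matched, with 14 windows. The sequences are written 5′ to 3′ on the strand of the gene, with motif matches in capitals. The heat shock element was searched in 2 forms, GAANNTTC and TTCNNGAA, each of which reads the same on both strands and which overlap each other where units follow one another. The endoplasmic reticulum stress element was searched on both strands as CCAAT and CCACG with 9 arbitrary bases between them.
HSPD1, downstream start, chr2:197499791-197500090, minus strand: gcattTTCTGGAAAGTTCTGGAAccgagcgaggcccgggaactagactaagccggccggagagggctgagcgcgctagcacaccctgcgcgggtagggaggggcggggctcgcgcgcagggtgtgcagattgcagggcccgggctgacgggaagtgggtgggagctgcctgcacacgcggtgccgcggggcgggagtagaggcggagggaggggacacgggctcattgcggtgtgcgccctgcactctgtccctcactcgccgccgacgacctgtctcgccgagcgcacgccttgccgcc
HSP90AA1, downstream start, chr14:102086995-102087294, minus strand: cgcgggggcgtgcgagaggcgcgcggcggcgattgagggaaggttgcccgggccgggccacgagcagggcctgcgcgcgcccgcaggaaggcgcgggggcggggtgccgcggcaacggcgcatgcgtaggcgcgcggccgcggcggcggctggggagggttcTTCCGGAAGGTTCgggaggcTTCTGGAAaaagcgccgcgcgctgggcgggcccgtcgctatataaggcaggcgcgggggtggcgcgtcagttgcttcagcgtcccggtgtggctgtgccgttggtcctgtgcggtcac
HSPA8, chr11:123062087-123062386, minus strand: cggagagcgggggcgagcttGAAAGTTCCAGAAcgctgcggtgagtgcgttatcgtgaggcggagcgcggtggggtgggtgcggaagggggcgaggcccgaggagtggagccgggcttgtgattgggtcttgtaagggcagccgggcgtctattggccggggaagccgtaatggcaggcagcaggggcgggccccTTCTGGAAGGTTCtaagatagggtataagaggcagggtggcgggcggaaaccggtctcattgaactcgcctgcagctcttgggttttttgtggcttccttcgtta
HSPA5, chr9:125241294-125241593, minus strand: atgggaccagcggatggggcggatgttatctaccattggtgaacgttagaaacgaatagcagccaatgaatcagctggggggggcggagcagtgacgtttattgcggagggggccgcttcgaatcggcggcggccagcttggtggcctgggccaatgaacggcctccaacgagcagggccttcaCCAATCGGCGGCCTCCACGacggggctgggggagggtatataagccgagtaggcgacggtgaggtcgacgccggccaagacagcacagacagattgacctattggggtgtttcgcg
HSP90B1, chr12:103930160-103930459, plus strand: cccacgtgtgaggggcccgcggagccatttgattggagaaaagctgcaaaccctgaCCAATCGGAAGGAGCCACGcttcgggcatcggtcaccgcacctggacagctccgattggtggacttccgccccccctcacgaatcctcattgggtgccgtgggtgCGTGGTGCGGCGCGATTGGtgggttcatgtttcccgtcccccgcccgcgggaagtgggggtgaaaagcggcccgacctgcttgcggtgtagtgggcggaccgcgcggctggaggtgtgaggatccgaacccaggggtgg

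Either heat shock form was found in 5 of the 10 genes, HSPD1, HSP90AA1, HSP90AB1, HSPA8 and HSPA9, against 16.2% of the 27305 genes of the table. By window it was found in 5 of 14 member windows and in 13.5% of all 35116. In HSPD1 the run of 3 overlapping matches lay from -245 to -228 relative to the downstream start, and in HSP90AA1 matches lay between -88 and -61 of the downstream start. The stress element was found in HSPA5 once, from -66 to -48, and in HSP90B1 on both strands, from -194 to -176 and from -89 to -71. Only 27 of the 35116 windows, 0.0769%, held that motif. The windows of HSPE1, HSPA4 and HSPH1 held neither motif in these spellings. Such matches describe letters in a window and are not evidence that a factor binds there.

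The lists met promoter windows of members at 4 places. In HSP90B1 an RPL22L1 peak that was not flat covered chr12:103930441-103930470, with its summit 58 bases from the start of the gene. This peak lay inside MIR3652, a microRNA gene annotated over the start of HSP90B1 (chr12:103930425-103930555), and shared 2 bases with the mature microRNA. Both sequences are shown, with the seed of the microRNA and the summit base of the peak in capitals.
hsa-miR-3652: cGGCUGGAggugugagga
RPL22L1 peak at the start of HSP90B1: gauccgaacccaggggugggggguggaGgc
The score of that peak was 77, below the list median of 124. The other places were a flat RPL22 peak of score 21 before the start of HSPA4, a flat RPL22L1 peak of score 14 before the start of HSPA9, and an RPL22L1 peak of score 625 that reached 1 base into a window of HSP90AB1.

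Summit numbers were then set side by side for each gene. A peak was called flat when it was 30 bases wide with the summit at offset 15, and 35 of the 44 RPL22 summits and 114 of the 168 RPL22L1 summits were not flat. A summit was present in 7 of the 10 genes in the RPL22 list and in 9 in the RPL22L1 list, against 68.2% and 69.7% of the 20046 protein-coding genes. The same 7 and 9 genes held a summit that was not flat, against 51.5% and 45.3%. Of the 9 genes with an RPL22L1 summit, HSPD1 and HSPE1 held no RPL22 summit, a combination found in 9.55% of the protein-coding genes with an RPL22L1 summit. The RPL22L1 list was longer as a whole, by 1.65 times, and in the members the ratio was 3.82. Among summits that were not flat it was 3.26 in the members and 1.03 over all genes.

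**Figure D1:**
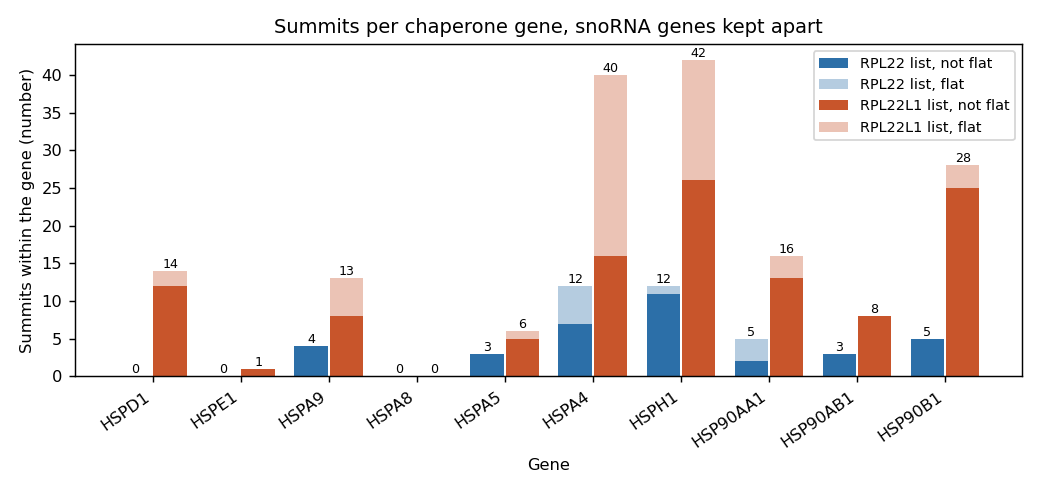
Number of summits (vertical axis) in each of the 10 chaperone genes (horizontal axis) for the RPL22 list (blue) and the RPL22L1 list (orange), 1 library each; full colour marks summits that were not flat, pale colour flat ones, and the number above each bar is the total. HSPD1 held 0 and 14 summits and HSPA8 held 0 and 0, and the RPL22L1 number was the larger in every gene but HSPA8.

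The mitochondrial chamber genes held no RPL22 summit. HSPD1 (chromosome 2, 197486584 to 197500274, minus strand) held 0 RPL22 and 14 RPL22L1 summits, and 12 of the 14 were not flat. The nearest RPL22 peaks lay 12757 bases below and 14818 bases above the bounds of the gene. Among the 7130 genes with at least 10 RPL22L1 summits, 0.379% held no RPL22 summit, and HSPD1 was 1 of these 27. Of the 1705 genes with at least 10 RPL22L1 summits that were not flat, 4 held no RPL22 summit, or 0.235%, and the other 3 were HMGN1, NPM1 and PDP1. These 3 are named after their values were seen, and the measure was known when HSPD1 was chosen.

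The RPL22L1 peaks of HSPD1 differed widely in score. The deposited score is the authors' value per peak and is used only for ranks within a list. The highest, at chr2:197494180-197494264, scored 3843 at rank 422, the top 0.166% of the list. The next, at chr2:197494644-197494746, scored 1382 at rank 1153, the top 0.453%, and its summit lay 5538 bases from the 5′ end of the gene. A peak of score 512 at chr2:197491579-197491647 followed with rank 8557. The lowest was flat with a score of 19, and the median of the 14 was 118, near the list median of 124. Both strongest peaks thus lay in the central part of the gene, at 44.4% and 40.5% of its length, with weaker summits from 18.0% to 99.7%. SNORA105B, a snoRNA gene within HSPD1, held no summit.

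HSPE1 (chromosome 2, 197500379 to 197503449, plus strand) starts 105 bases beyond the upper bound of HSPD1 and held 0 RPL22 and 1 RPL22L1 summit. That peak, chr2:197503223-197503344, was 122 bases wide with a score of 876 and rank 2865, just outside the top 1% of the list at 1.13%. It lay at 93.2% of the gene's length, close to the 3′ end. The read-through gene HSPE1-MOB4 covers HSPE1 completely, so the peak counts for both. No RPL22 peak was listed within 26552 bases below or 11643 bases above HSPE1.

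HSPA9 (chromosome 5, 138553756 to 138575401, minus strand) had all of its summits near the 5′ end. It held 4 RPL22 summits, all not flat, between 6.01% and 20.4% of its length, and 13 RPL22L1 summits, 8 of them not flat, between 0.347% and 35.8%. The remaining part of the gene towards the 3′ end, which contains SNORD63 and SNORD63B, held no summit in either list. Of the 4 RPL22 peaks, 3 overlapped RPL22L1 peaks, with summits 1, 1 and 7 bases apart. The strongest pair was an RPL22 peak of score 328 and rank 3110 at chr5:138570958-138570989 and an RPL22L1 peak of score 728 and rank 4153. LOC105379193, a long non-coding RNA gene that overlaps the 5′ part, contained 2 of the RPL22 and 7 of the RPL22L1 summits, and without strand in the lists these cannot be told apart from HSPA9.

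HSPA8 (chromosome 11, 123057489 to 123062462, minus strand) stood at 0 summits in both lists outside its snoRNA genes. It hosts SNORD14C, SNORD14D and SNORD14E, box C/D snoRNAs, and the RPL22L1 list held 1 peak in SNORD14E, at chr11:123058068-123058099. This peak had a score of 102898 and rank 61, the top 0.024% of the list, higher than any peak counted for a member. SNORD14C and SNORD14D held none, and the nearest RPL22 peak was 6639 bases from it. HSPA8 therefore had the strongest peak within the bounds of any member and none attributed to the gene itself.

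HSPA5 (chromosome 9, 125234853 to 125241343, minus strand) held 3 RPL22 and 6 RPL22L1 summits, with 3 and 5 not flat. Per length it was the most densely marked member in the RPL22 list, with 0.462 summits per kb, which is percentile 85.1 of the protein-coding genes with a summit. Of the RPL22 peaks, those of score 315 at chr9:125240664-125240695 and score 293 at chr9:125236703-125236741 overlapped RPL22L1 peaks of score 279 and 385. The highest RPL22L1 peak of the gene, score 840 at chr9:125238126-125238210, had no RPL22 peak within 1384 bases. The position of the strongest peak thus differed between the lists.

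The HSP110-type genes held the most summits. HSPH1 (chromosome 13, 31134973 to 31162388, minus strand) held 12 RPL22 and 42 RPL22L1 summits, of which 11 and 26 were not flat. It had 7 RPL22 peaks that overlapped 7 RPL22L1 peaks. Their summits lay from 0 to 55 bases apart, and at base 31150125 of chromosome 13 both lists placed the summit on the same position. The strongest RPL22 peak, score 509 and rank 1533 at chr13:31140201-31140242, overlapped an RPL22L1 peak of score 895 and rank 2729. The strongest RPL22L1 peak, score 1151 and rank 1632 at chr13:31151617-31151706, overlapped an RPL22 peak of score 123 and rank 15449. Shared sites in HSPH1 were thus not ordered alike by score in both lists.

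HSPA4 (chromosome 5, 133052013 to 133106449, plus strand) held 12 RPL22 and 40 RPL22L1 summits. Flat peaks, 5 and 24 of them, were more numerous than in any other member. Their shares were still below those of the lists, where 99953 of 154000 RPL22 and 198226 of 254413 RPL22L1 peaks were flat. Of the RPL22 peaks of HSPA4, 6 overlapped 7 RPL22L1 peaks. The strongest RPL22 peak, score 260 and rank 4512 at chr5:133096203-133096238, began on the same base as an RPL22L1 peak of score 675 and rank 4811. The strongest RPL22L1 peak, score 1138 and rank 1655 at chr5:133104392-133104445, had no overlapping RPL22 peak. The summits that were not flat had their median at 68.1% of the gene's length for RPL22 and at 70.3% for RPL22L1. Among flat peaks, the 5 of RPL22, of score 21 to 45, had theirs at 13.2%. The 24 of RPL22L1, of score 18 to 227, had theirs at 60.6%.

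The HSP90 genes held most of the strongest peaks. HSP90AA1 (chromosome 14, 102080742 to 102139749, minus strand) has 2 annotated starts, and its summits split at the downstream one, base 102087044. From that start to the end of the gene, 6303 bases or 10.7% of its length, the RPL22 list held 2 summits and the RPL22L1 list 13, and none of these was flat. In the 52705 bases between the starts both lists held 3 summits, all flat. This gave 0.317 and 2.06 summits per kb in the short part and 0.0569 per kb in the long part in both lists. Over the whole gene the RPL22L1 list had 0.271 per kb, at percentile 47.1.

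The RPL22 peaks of the short part of HSP90AA1 were the highest of any member in that list. They had scores of 1678 (rank 466, chr14:102084779-102084809) and 1476 (rank 519, chr14:102083231-102083263), within the top 0.303% and 0.337%. Both overlapped RPL22L1 peaks, of score 1106 and 645, with summits 2 and 1 bases apart. The highest RPL22L1 peak there, score 2532 and rank 571 at chr14:102086192-102086225, lay 1382 bases from the nearest RPL22 peak, and 8 of the 13 RPL22L1 peaks were within the top 1% of their list. The sites shared by both lists were the strongest of HSP90AA1 in the RPL22 list and not in the RPL22L1 list.

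HSP90AB1 (chromosome 6, 44246194 to 44253883, plus strand) held 3 RPL22 and 8 RPL22L1 summits, and none was flat. Its strongest RPL22 peak, score 813 and rank 851 at chr6:44253635-44253689, ended 30 bases before the strongest RPL22L1 peak, score 1675 and rank 883 at chr6:44253720-44253757. The next RPL22 peak, score 426 at chr6:44253727-44253777, overlapped that RPL22L1 peak with summits 2 bases apart. A weaker pair, with scores of 88 and 211, had summits 1 base apart at 42.1% of the gene's length. The 3′ end was thus the strongest site of HSP90AB1 in both lists.

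HSP90B1 (chromosome 12, 103930410 to 103947926, plus strand) held 5 RPL22 and 28 RPL22L1 summits, and 5 and 25 were not flat. All 5 RPL22 peaks overlapped RPL22L1 peaks, with summits 0, 4, 15, 23 and 40 bases apart. The RPL22 scores were 391, 125, 255, 291 and 74 from the 5′ to the 3′ end, and those of the overlapping RPL22L1 peaks were 1852, 1167, 108, 1224 and 810. In the RPL22L1 list the gene had 1.60 summits per kb, at percentile 97.4 and the highest among the members. The RPL22 list had no summit in the first 7317 bases of the gene, where the RPL22L1 list held 12 summits, among them its strongest peak of score 2262 and rank 636 at chr12:103932845-103932880.

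**Figure D2:**
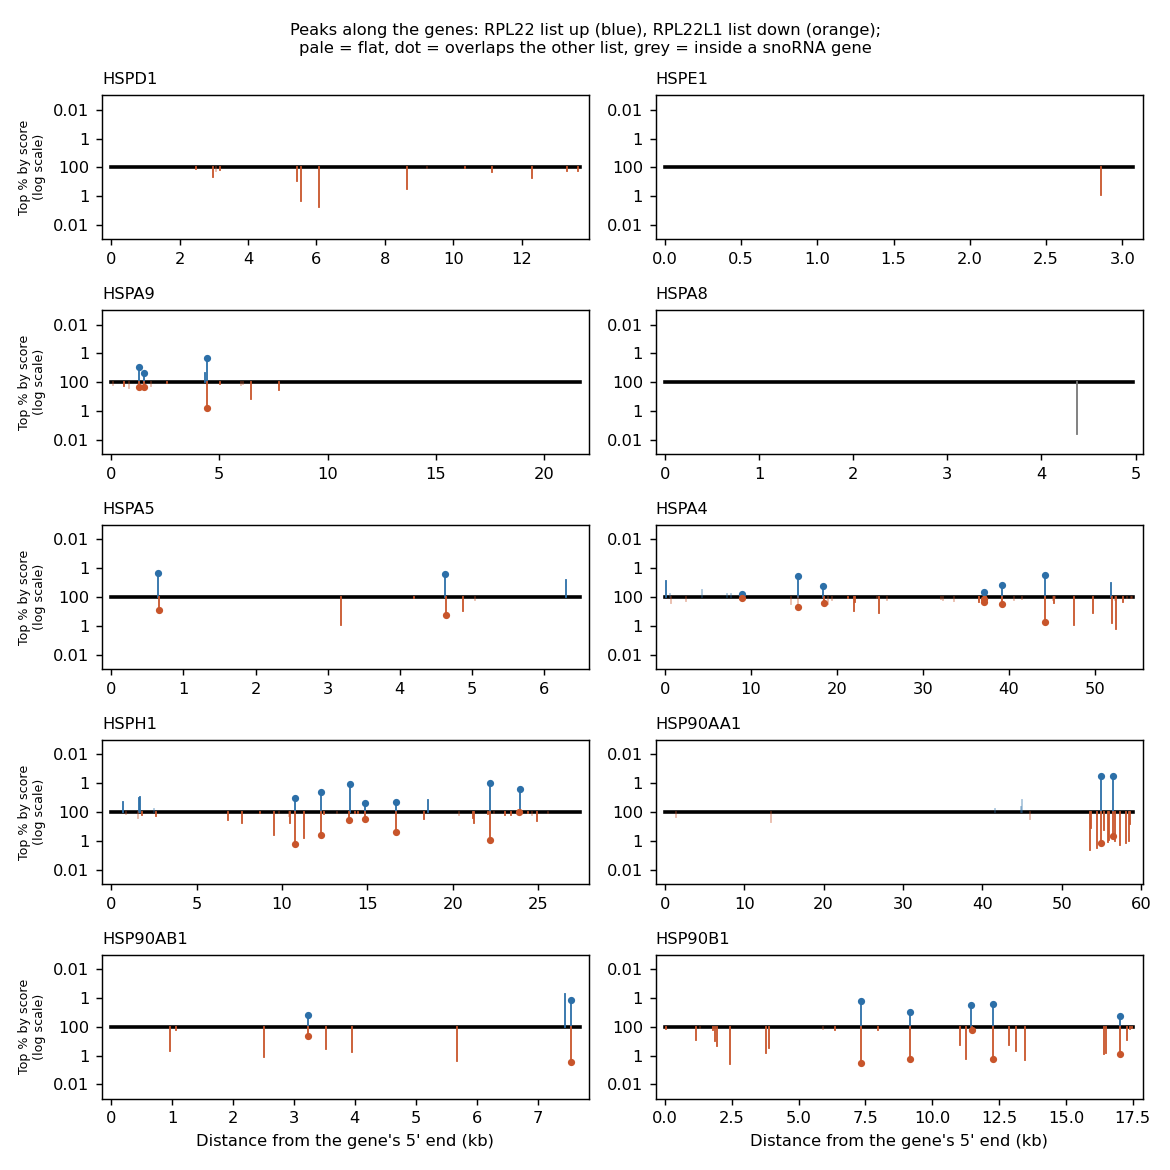
Peaks of each gene by distance from its 5′ end (horizontal axis, kb), with the rank of the peak as top percent of its own list on a log scale (vertical axis), RPL22 list upwards in blue and RPL22L1 list downwards in orange. Pale lines are flat peaks, dots mark peaks that overlap the other list, and the grey line in HSPA8 is the peak inside SNORD14E; peaks of HSP90AA1 that were not flat lay in the last 6303 bases and all summits of HSPA9 in the first 35.8% of the gene.

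The members were compared with the lists as a whole by the shape of their peaks. In the RPL22 list 79.5% of member summits were not flat (exact 95% interval 64.7 to 90.2%), against 35.1% of all RPL22 peaks. For RPL22L1 it was 67.9% (60.2 to 74.8%), against 22.1% of all RPL22L1 peaks. In a wider list of 78 other chaperone genes, described below, 376 of 640 RPL22 and 494 of 1299 RPL22L1 summits were not flat. Intervals in this text are exact binomial ones by Clopper and Pearson, and they speak for counting error alone, since neighbouring peaks of a gene are not independent. In both lists the peaks of these genes were more often wider than 30 bases, in 75% of member peaks and 19.2% of all peaks for RPL22, and in 48.8% and 16.2% for RPL22L1. Flat peaks are 30 bases wide by definition, so this in part repeats the shape. Among peaks that were not flat, 94.3% of member and 54.8% of all RPL22 peaks were wider than 30 bases. For RPL22L1 these shares were alike, 71.9% and 73.2%.

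Member peaks were also frequent at the top of their lists by score. Within the top 1% by score were 4 of 44 RPL22 peaks, 9.09% (2.53 to 21.7%), and 21 of 168 RPL22L1 peaks, 12.5% (7.91 to 18.5%), against 1% of each list. The top 10% held 47.7% (32.5 to 63.3%) of the RPL22 and 32.1% (25.2 to 39.8%) of the RPL22L1 member peaks. At or above the list median were 86.4% of RPL22 member peaks, against 60.6% of all RPL22 peaks. For RPL22L1 it was 54.8% (46.9 to 62.4%) against 50.1%, so that its difference lay at the top of the list. Among RPL22L1 peaks that were not flat it was 72.8% against 73.7%, and within the top 10% 47.4% against 32.3%. The HSP90 genes contributed 3 of the 4 RPL22 and 17 of the 21 RPL22L1 peaks within the top 1%. The remaining ones were in HSPH1 in the RPL22 list, and in HSPD1 with 2, HSPA4 with 1 and HSPH1 with 1 in the RPL22L1 list.

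Overlap between the lists depended on the direction in which it was read. Of the RPL22 member peaks 27 of 44 overlapped an RPL22L1 peak by at least 1 base, 61.4% (45.5 to 75.6%), against 17.4% of all RPL22 peaks. Of the RPL22L1 member peaks 28 of 168 overlapped an RPL22 peak, 16.7% (11.4 to 23.2%), against 10.6% of all RPL22L1 peaks. Among peaks that were not flat the shares were 74.3% (56.7 to 87.5%) against 39.2% for RPL22, and 21.1% (13.98 to 29.7%) against 26% for RPL22L1. The RPL22L1 share of peaks that were not flat was thus near its level over the whole list.

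Where the lists overlapped in these genes, the summits lay close together. The 27 pairs had a median distance of 7 bases and a range of 0 to 56, and 13 pairs, 48.1%, were within 5 bases. Over all 26786 overlapping RPL22 peaks the median was 11 bases and 31.5% were within 5.

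**Figure D3:**
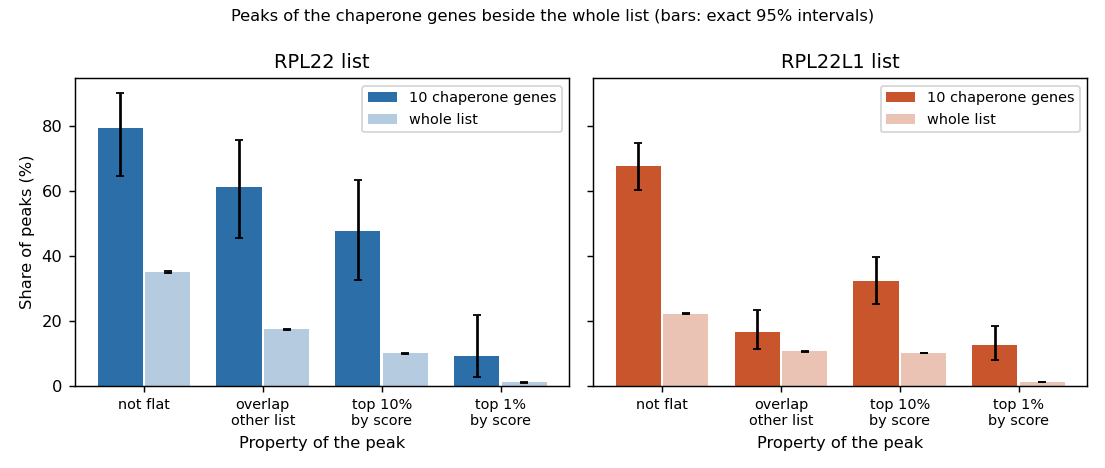
Share of peaks (vertical axis, %) that were not flat, overlapped the other list, or were within the top 10% or top 1% by score (horizontal axis), for the 10 chaperone genes (full colour) and the whole list (pale), with exact 95% intervals as error bars. In the RPL22 panel the overlap was 61.4% against 17.4%, and in the RPL22L1 panel 16.7% against 10.6%.

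Because the lists differ in length, summit numbers were also taken after cutting the RPL22L1 peaks to the 154000 with the highest scores. The 10 genes then held 44 RPL22 and 110 RPL22L1 summits, a ratio of 2.5, where all genes together had a ratio of 1.003. The log2 ratio of the member totals, each plus 1, was 1.30, with an interval of 0.81 to 1.86 from the binomial share. Leaving out HSPD1 gave 1.18. Of the members 6 held at least 10 summits in both lists together, and the log2 ratio towards RPL22L1 was above 1 in 3 of them, against 6.38% of the 8620 genes with as many summits. It was below -1 in 0 of the 6, against 8.78%. All 6 were above 0, against 45.8%.

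The genes above the threshold were the HSP90 genes, HSP90B1 at 1.81, HSP90AA1 at 1.50 and HSP90AB1 at 1.17. Just outside it were HSPA4 at 0.88, HSPA9 at 0.85 and HSPH1 at 0.69. HSPD1 had a ratio of 3.32 from 0 and 9 summits, 1 summit short of the minimum, HSPE1 had 1 from 0 and 1, and HSPA5 had 0.58 from 3 and 5. HSPA8 had no summit to compare. These ratios belong to libraries without replicates and were in part known when the genes were chosen, so the order of the genes is a description.

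**Figure D4:**
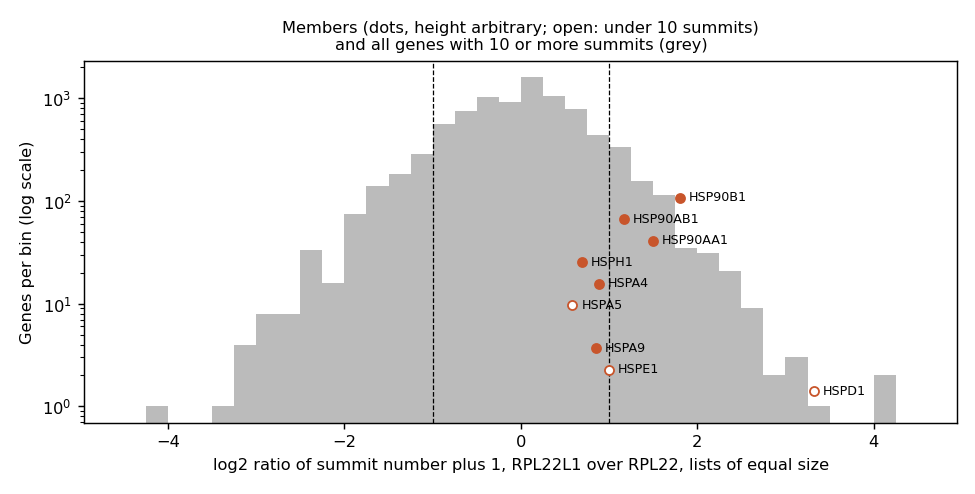
Number of genes per bin (vertical axis, log scale) by log2 ratio of summit number plus 1, RPL22L1 over RPL22 in lists of equal size (horizontal axis), for the 8620 genes with at least 10 summits (grey), with the members as dots at arbitrary height, open where they held fewer than 10. Dashed lines mark -1 and 1; the 3 HSP90 genes lie above 1, HSPD1 at 3.32, and HSPA8 without summits is not drawn.

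By compartment, the mitochondrial members HSPD1, HSPE1 and HSPA9 together held 4 RPL22 and 28 RPL22L1 summits, the endoplasmic reticulum members HSPA5 and HSP90B1 held 8 and 34, and the 5 cytosolic members 32 and 106. Per kb these were 0.104 and 0.729 in the mitochondrial group, 0.333 and 1.42 in the endoplasmic reticulum group, and 0.208 and 0.690 in the cytosolic group. These densities are from whole lists, of which the RPL22L1 list is 1.65 times longer. In lists of equal size the log2 ratio was 1.93 in the mitochondrial, 1.53 in the endoplasmic reticulum and 1.04 in the cytosolic group. HSPD1, which was selected on this measure, held 0 and 9 of the 4 and 18 mitochondrial summits, and HSPA9 alone was at 0.85. Of the 8 and 25 endoplasmic reticulum summits, HSP90B1 held 5 and 20 at a ratio of 1.81, while HSPA5 was at 0.58. The order of the groups therefore depends on single members and on how HSPD1 was chosen.

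Processed copies of the members were examined because reads can be divided between a gene and its near-identical copies, and the placement of ambiguous reads is not given in the sources used here. The table names 73 such pseudogenes, 28 of HSPE1, 22 of HSPD1, 20 of HSPA8, 2 of HSPA9 and 1 of HSPA5. An RPL22 summit lay in 16 of them and an RPL22L1 summit in 19, with 21 and 26 summits in all. These are 21.9% and 26.0% of the copies, and over all 15580 pseudogenes, whose median length of 659 bases is below the 954 of the copies, the shares were 8.27% and 9.72%. Of the 28 copies with a summit in either list, 18 lay within another annotated gene, so that their peaks cannot be assigned to the copy alone. Of the summits 5 and 11 were not flat, and their median scores were 21 and 159. The copies of HSPD1, HSPE1 and HSPA8, genes with no RPL22 summit of their own, held 5, 2 and 12 RPL22 summits and 11, 4 and 10 RPL22L1 summits. Whether reads of these genes were placed in the copies was not tested.

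In HSPD1P4, a copy of HSPD1 on chromosome 12 (56510941 to 56513185), there were 2 summits of RPL22 and 3 of RPL22L1. The RPL22 peak of score 151 and rank 10893 at chr12:56511528-56511563 overlapped an RPL22L1 peak of score 1313 and rank 1256, the strongest RPL22L1 peak in any of the 73 copies. HSPA8P1 on chromosome X (121202843 to 121205092) held the strongest RPL22 peak among them, score 452 and rank 1817 at chrX:121203238-121203271. It overlapped an RPL22L1 peak of score 301. HSPA8P8 on chromosome 7 (10451236 to 10453497), within the gene MGC4859, held an overlapping pair of scores 102 and 537, and HSPA9P1 on chromosome 2 (221961670 to 221964457) a pair on the same bases with scores of 45 and 81. HSPE1P20 held a flat RPL22 peak of score 202 with no overlapping RPL22L1 peak, and the highest RPL22L1 peaks of HSPD1P1, within CDH12, and of HSPD1P5 scored 263 and 244. HSP90 pseudogenes, whose symbols are built differently and which were added after the data were seen, numbered 13, of which 6 held 17 RPL22 summits and 7 held 15 RPL22L1 summits.

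Other chaperone genes were counted from a wider list of 81 genes, of which 78 were in the gene table. A summit lay in 69 of them for RPL22, 88.5%, and in 70 for RPL22L1, 89.7%, beside the 68.2% and 69.7% of all protein-coding genes. Of the 58 with at least 10 summits in lists of equal size, the log2 ratio was above 1 in 7, 12.1%, and below -1 in 3, 5.17%, beside the 6.38% and 8.78% over all genes. The median was 0.36, where the 6 members with as many summits had 1.03 and all genes 0. In the log2 ratio the wider list thus lay nearer to the level of all genes than the members did. In the share of genes with an RPL22 summit it did not, as 7 of the 10 members held one.

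Among these 58 genes, the largest ratios towards RPL22L1 were those of DNAJA2, a co-chaperone of HSP70, with 2 and 16 summits and a log2 ratio of 2.50, and HSPA13 with 2 and 10 summits and 1.87. DNAJB11, a co-chaperone of HSPA5, followed with 1.74, DNAJC9, a histone co-chaperone, with 1.49 and the prefoldin subunit PFDN1 with 1.42. Towards RPL22, within the same 58, they were those of the HSP70 nucleotide exchange factor HSPBP1, with 10 and 2 summits and -1.87, the myosin and HSP90 co-chaperone UNC45A at -1.25 and the vesicle co-chaperone DNAJC5 at -1.09. HSF1, the heat shock factor, was at -0.89 and DNAJB6 at -0.76. Co-chaperones of HSP70 were named at both ends.

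Among the 8 genes of the CCT ring, the cytosolic counterpart of the HSPD1 chamber, 7 held an RPL22 and 8 an RPL22L1 summit, with 64 and 156 summits in all. In lists of equal size these were 64 and 93, and 0 of the 7 CCT genes with at least 10 summits had a log2 ratio above 1. Over all genes with as many summits this share was 6.38%, so that 0 of 7 is near that level. The highest of the 7 were CCT6A at 1 and CCT8 at 0.85, and the lowest was CCT7 at -0.45. The CCT gene without an RPL22 summit was TCP1, which held 9 RPL22L1 summits, none of them flat. In the rest, all RPL22 summits of CCT2, CCT3, CCT4 and CCT6A were not flat, as were 5 of 6 in CCT5, 13 of 14 in CCT7 and 7 of 9 in CCT8. A high share of RPL22 summits that were not flat was thus not particular to the members. In lists of equal size TCP1 had 0 and 8 summits and a log2 ratio of 3.17, and like HSPD1 at 3.32 it fell short of the minimum of 10. The highest RPL22L1 peaks of the wider list were in CCT3 (score 3168, rank 484), CCT8 (2497, rank 577), the HSP90 co-chaperone CDC37 (2291, rank 627), CCT4 (1790, rank 797) and CALR (1687, rank 869). The highest RPL22 peaks were in CALR (rank 354), P4HB (rank 444), CCT3 (rank 552), CANX (rank 655) and CCT8 (rank 884). CALR, P4HB and CANX encode chaperones or folding enzymes of the endoplasmic reticulum, and CALR, CCT3 and CCT8 were among the 5 highest in both lists. No summit in either list was found in 7 of the 78 genes. Of these, HSPA1A and HSPA1B, inducible HSP70 genes, HSPA1L, BAG6 and PFDN6 start between bases 3.16e+07 and 3.33e+07 of chromosome 6. HSPA6 and DNAJA3 lie elsewhere. A summit was more frequent in the wider list, 88.5% for RPL22 and 89.7% for RPL22L1, than in all protein-coding genes, 68.2% and 69.7%. These 7 and TCP1 are named after their values were seen.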

How the data were processed

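Peak lists of 2 libraries, RPL22-HaloTag and RPL22L1-HaloTag, were used, and groups follow the genotype labels. Per the submitters' processing notes the build was hg38 and the tools named were cutadapt 4.8, STAR 2.7.10a, UMI-tools 1.1.5 and MACS3 3.0.0a6, with no role or order. The control and the treatment of ambiguous reads are not given in the sources used here. Each deposited line holds a peak's start, end and summit offset and a whole-number score, whose scale is not stated; columns for signal and p-value held 0 and strand a dot. Reads per library are unknown. The lowest score in both lists was 13.

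Summits (start plus offset plus 1) were placed within RefSeq GRCh38 gene bounds, without exons. Starts and strand came from the RefSeq promoter table. In lists of equal size, 4029 of the 9182 RPL22L1 peaks tied at score 98 were kept, by sequence name and position. Members and lists were chosen with earlier results of these data known. Named besides the members were genes overlapping a member, and by rule the 5 copies with the highest peak in each list and the 5 wider-list genes at each end of the ratio, among those with at least 10 summits, and the 5 with the highest peaks. With 1 library per group no test was run, and values describe these libraries. The code was checked by comparing summit counts of 200 genes in the RPL22 list with a direct search, and 0 were miscounted. In a simulated list of 154000 peaks, 20% were planted on the other list and 20% recovered. The rest were put on a sequence that the other list lacks, so this checks the overlap code alone. Versions were matplotlib 3.10.9, scipy 1.17.1, pandas 2.3.3, numpy 2.4.6 and Python 3.11.15. Alternatives changed the score limit, flat peaks, the overlap, the gene assignment, ties and the list size, and left out HSPD1. The 13 HSP90 pseudogenes were added after the data were seen. A listed marker gene is not reported here.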

Additional observations from a re-analysis of the deposited data

How the results depend on the processing

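No paired analysis was possible because each group had 1 library. Of 32 alternative values for the 10 genes as a group, 25 stayed within 1.5-fold of the main value (numbers of summits) or within its interval (shares and the log2 ratio), and 7 did not. Among the 25 are the RPL22 values without HSPD1, which could not move because HSPD1 held no RPL22 summit. When each list was limited to the upper part of its scores, from the median up, the RPL22L1 summits numbered 92, the shares that were not flat were 92.1% (RPL22) and 90.2% (RPL22L1), and the RPL22L1 overlap share was 26.1%. Of all peaks under that limit, 50958 of 93366 (RPL22) and 41425 of 127371 (RPL22L1) were not flat. The overlap share of all peaks under it was not computed. That setting removes flat peaks preferentially, since 3 of 9 flat RPL22 and 9 of 54 flat RPL22L1 member peaks reached the median, beside 35 of 35 and 83 of 114 that were not flat. Requiring 50% of each peak to be shared gave overlap shares of 36.4% and 9.52%, against 9.76% of all RPL22 and 5.91% of all RPL22L1 peaks. This definition is narrower by construction. Whole lists gave a log2 ratio of 1.91, as the RPL22L1 list is longer. The ratio of the member totals was above 0 in all 6 alternatives, from 1.07 to 1.91. For single genes 27 values were computed, of which 0 changed sign. Those of HSPD1 and HSPE1 could not, as neither gene held an RPL22 summit, and a fall to 0 was not counted as a change. HSPA9 reached 0 under the same score limit, and without flat peaks HSPA4 was at 1.09 and HSPH1 at 1.06, past the threshold of 1. In whole lists HSPA4 was at 1.66, HSPH1 at 1.73 and HSPA9 at 1.49, also past it. HSP90AB1 was at 1 under that score limit. Neither the number of reads nor the HaloTag background is known, so a gene without a summit may hold reads below the limit of the list.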
